A study of Rattus norvegicus with 4 samples.

Results

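The enzymes that cut, shield and crosslink the matrix of skeletal muscle were followed across 4 arrays of rat soleus, a slow postural muscle of the hindlimb. Members were the genes named Mmp, Timp, Adam or Adamts with a number, together with Lox and the Loxl genes, taken from probe sets that the platform annotation pairs with exactly 1 gene. The rule gave 80 probe sets of 55 genes, out of 14217 genes with a single symbol. They comprise 17 matrix metalloproteinases, 4 tissue inhibitors of metalloproteinases, 18 ADAM genes, 12 ADAMTS genes and 4 lysyl oxidases.

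The animals were male Wistar rats, 10 weeks old when the diets began and described as 14 weeks old in the age field. The genistein group ate an AIN-93G diet with 0.5 g of genistein per kg (0.05%), a soy isoflavone that binds oestrogen receptors, and the control group ate a modified AIN-93G diet with corn oil in place of soybean oil, each for 24 days. On day 14 every rat had the left sciatic nerve excised and the right leg sham-operated, and soleus was taken 10 days later. The 4 groups were genistein denervated, control diet denervated, genistein sham and control diet sham muscle. RNA of 8 rats was pooled for each group and hybridised to 1 array, and within a diet the denervated and sham legs belong to the same 8 animals. With 1 array per group there is no replicate, no SD and no test for any value given here, and 2-fold (1 log2 unit) is used as a fixed size.

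Metalloproteinases of the MMP, ADAM and ADAMTS families share a zinc-dependent catalytic domain, although several ADAMs lack the residues needed for cleavage. MMPs degrade collagens and other matrix proteins, membrane-bound ADAMs shed the outer parts of receptors and growth factors, and secreted ADAMTS enzymes cut proteoglycans such as versican and aggrecan. TIMPs block these proteases, and lysyl oxidases join collagen and elastin chains by oxidising lysine side chains. In muscle most of these genes are made by fibroblasts and other cells between the fibres, though fibres make some of them too.

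The 4 arrays came scaled to a common level, a trimmed mean of 500.2 units. A signal below 78.9 units, the 40th percentile over all non-control probe sets, was set to that floor before ratios were taken, so a ratio of a floored signal gives a bound. Signals above it made up 58.5% to 60.8% of an array. The treatment field of 2 samples contradicts their titles, and all 5 markers of nerve loss that were listed (Chrna1, Chrng, Myog, Runx1, Ncam1) were at least 2-fold higher in denervated than in sham muscle on both diets, as the titles have it. The actin 3′ to 5′ signal ratio, a sign of RNA integrity, was 2.76 in genistein denervated and 3.79 in control diet denervated muscle, against 2.32 in genistein sham and 2.08 in control diet sham muscle. The same ratio for GAPDH did not follow it. It was 1.13 in genistein denervated and 1.14 in control diet denervated muscle, against 1.20 in genistein sham and 1.24 in control diet sham muscle. As a guide to measurement scatter, probe sets of the same gene had an SD about their mean of 0.37 and 0.36 log2 units for the denervation ratio on genistein and on the control diet, and of 0.25 and 0.27 for the diet ratio in denervated and in sham muscle.

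A first result is which of these genes the soleus gave a signal for at all. Above the floor on at least 1 array were 34 of the 55 genes, 29 of them on all 4 arrays, and 21 were below it throughout. The lysyl oxidases (4 of 4) and the TIMPs (4 of 4) were all measured, as were 10 of 12 ADAMTS genes and 10 of 18 ADAMs. Of the 17 MMPs, 6 were measured: Mmp2 (gelatinase A), the membrane-anchored Mmp14, Mmp15, Mmp17 and Mmp24, and Mmp23. The other 11 MMPs (Mmp3, Mmp7, Mmp8, Mmp9, Mmp10, Mmp11, Mmp12, Mmp13, Mmp16, Mmp19 and Mmp28) read between 3.6 and 77.8 units on every array, denervated ones included. Mmp9, the gelatinase of leukocytes, read 31.9 units in genistein denervated and 18.1 in control diet denervated muscle, against 25.9 in genistein sham and 30.2 in control diet sham muscle. The 8 ADAMs below the floor were Adam2, Adam3a, Adam6, Adam7, Adam11, Adam18, Adam22 and Adam32.

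The MMPs below the floor include a run of neighbours on chromosome 8, and the bases before their starts have features in common. RefSeq promoters (GRCr8 assembly, 250 bases before to 50 after the start) were matched for 32 of the 55 members. The promoters of Mmp13 (collagenase 3), Mmp12 (macrophage elastase), Mmp3 and Mmp10 (the stromelysins), Mmp8 (neutrophil collagenase) and Mmp7 (matrilysin) lie within 350.5 kb at chr8:12782579-13133092. Below are the 100 bases before each start, 5′ to 3′, with capitals marking the AP-1 motif TGANTCA, which is its own reverse complement, and the TATA motif TATAAA or its reverse complement TTTATA.
Mmp13 (chr8:12782729-12782828, + strand): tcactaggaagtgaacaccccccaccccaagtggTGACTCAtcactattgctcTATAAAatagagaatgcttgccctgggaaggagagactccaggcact
Mmp12 (chr8:12866552-12866651, + strand): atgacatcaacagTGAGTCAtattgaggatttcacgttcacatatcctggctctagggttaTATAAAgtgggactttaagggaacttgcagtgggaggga
Mmp3 (chr8:12925181-12925280, + strand): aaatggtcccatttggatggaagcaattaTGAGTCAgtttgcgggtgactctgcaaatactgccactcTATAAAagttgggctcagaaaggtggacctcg
Mmp10 (chr8:12974607-12974706, + strand): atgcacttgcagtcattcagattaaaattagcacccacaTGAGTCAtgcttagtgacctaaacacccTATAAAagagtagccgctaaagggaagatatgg
Mmp8 (chr8:13008790-13008889, + strand): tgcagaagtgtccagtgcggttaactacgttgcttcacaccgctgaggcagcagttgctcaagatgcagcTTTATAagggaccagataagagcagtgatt
Mmp7 (chr8:13132943-13133042, + strand): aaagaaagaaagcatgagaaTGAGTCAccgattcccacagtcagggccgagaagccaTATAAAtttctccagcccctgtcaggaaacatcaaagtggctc
All 6 windows hold a TATA motif and 5 of them, not that of Mmp8, hold an AP-1 motif that begins 61 to 87 bases before the start. Among 27457 promoters taken from 250 bases before to 50 after the start, longer than the windows shown, 7.33% hold the AP-1 motif, 14.3% the TATA motif and 1.43% both. Of the 10 members below the floor that have a promoter, 5 hold both, all of them from this run, against 0 of the 22 members above the floor. A match is a description of the letters and not a shown binding site.

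**Figure D1:**
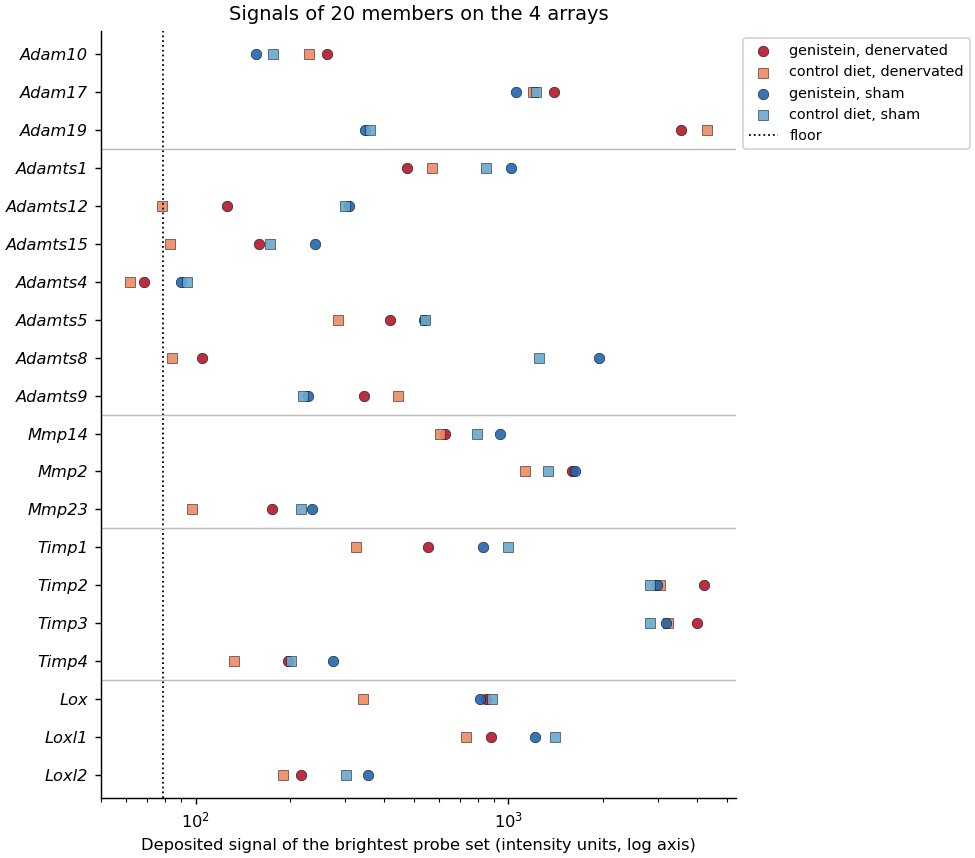
Deposited signal of the brightest probe set (intensity units, log axis) for 20 members on the 4 arrays, with the floor of 78.9 units as a dotted line. Red and orange symbols are the denervated pools and blue symbols the sham pools. Adam19 lies 10.2-fold and 11.9-fold to the right in denervated muscle on genistein and on the control diet, Adamts8 far to the left, and Lox and Timp1 are lowest in control diet denervated muscle.

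Loss of the nerve was the larger of both influences, and the families did not go together. In denervated muscle on genistein, 1 of 34 measured members was at least 2-fold higher than in sham and 3 were at least 2-fold lower, where 4.96% and 6.57% of all 10810 measured genes were. On the control diet 2 of 33 members were at least 2-fold higher and 6 lower, where 5.04% and 7.63% of 10755 genes were. The member median was -0.34 log2 units on genistein and -0.53 on the control diet, against 0.02 and 0.00 for all measured genes. On genistein 13 of 34 members had a ratio above 0 and 21 below it (51.7% and 48.3% of all genes), and on the control diet 9 of 33 had one above 0 and 24 below it (49.8% and 50.2%). In 19 of 34 members both denervated pools read below both sham pools (31.3% of all genes) and in 9 both read above (34.1%). Adam8 and Adamts4, among the 19, had both denervated signals floored, so they could only fall that way. Of members above the floor on all 4 arrays, 17 of 29 were below 0 on genistein and 21 of 29 on the control diet. The ratios on the 2 diets, which share no array, had a Pearson r of 0.92 and a Spearman rho of 0.78 over 33 members, and an r of 0.77 without Adam19 and Adamts8. Over all 10414 genes measured on both diets r was 0.85.

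Scaling and the floor bear on these directions. When each array was scaled to its hybridisation controls, which are added before hybridisation and read lower on the denervated arrays, the median of all genes became 0.48 on genistein and 0.35 on the control diet, and the member medians became 0.077 and -0.16. Members past 2-fold were then 4 higher and 1 lower on genistein and 3 higher and 4 lower on the control diet. Over all genes 1784 were then higher and 262 lower on genistein, against 536 and 710 as deposited, and 1261 higher and 391 lower on the control diet, against 542 and 821. Relative to the median of all genes the members then stood at -0.41 and -0.51, against -0.36 and -0.53 with the deposited scaling. The genistein median depended on the floor: with it at the 20th percentile, which lets in dimmer members, 26 of 51 were above 0 and 25 below, with a median of 0.03 (0.02 relative to all genes). It was -0.11 with the floor at the 60th percentile and -0.20 with probe sets averaged. On the control diet the medians under those 3 settings were -0.27, -0.24 and -0.48.

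**Figure D2:**
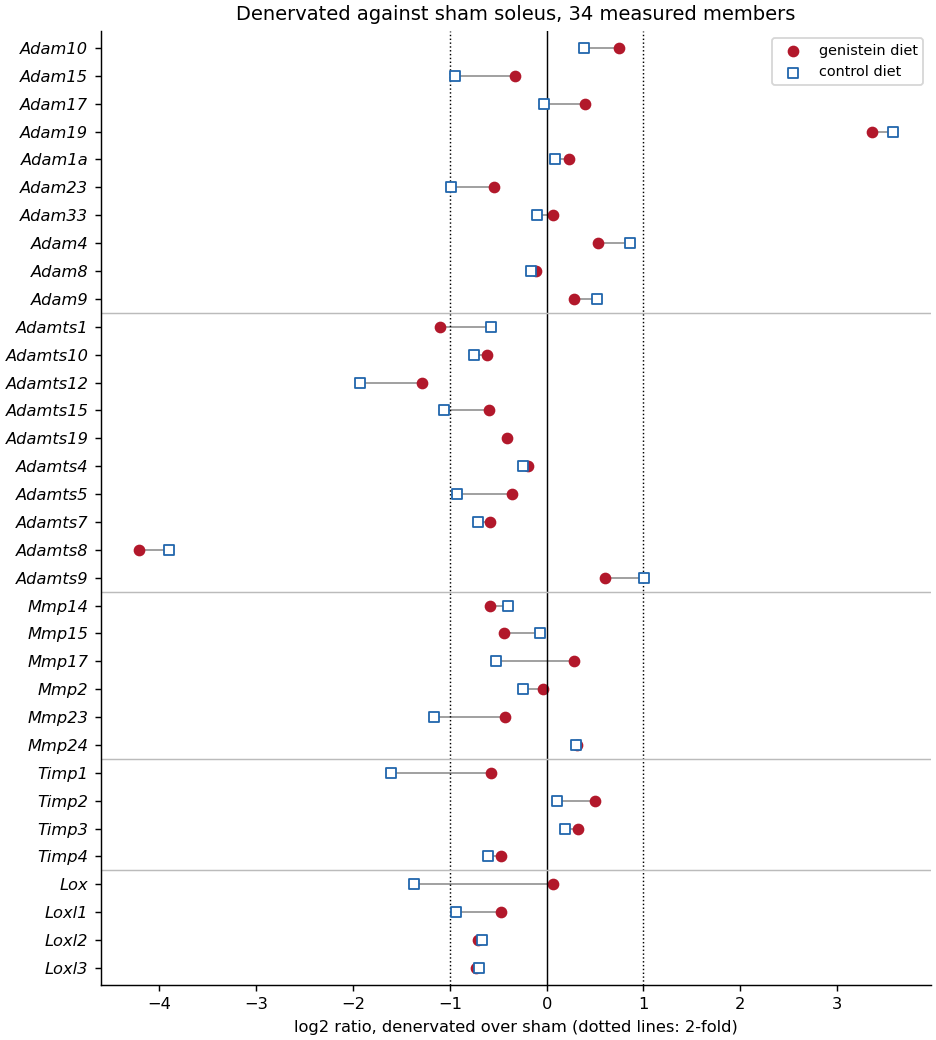
Log2 ratio of denervated over sham soleus for the members above the floor on at least 1 array, by family, on genistein (red circles) and on the control diet (open blue squares, no value for Adamts19). Ratios that involve a floored signal are bounds. Adam19 and Adamts8 stand apart from the other members on both diets, and Lox and Timp1 have the widest gaps between diets.

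ADAM proteases held the highest ratio of the members. Adam19, or meltrin beta, is a membrane protease that sheds neuregulins and was first described from mouse muscle cells. It read 3559 units in genistein denervated and 4312 in control diet denervated muscle, against 347 in genistein sham and 362 in control diet sham muscle. The denervated pools did not overlap the sham pools, with ratios of 10.2-fold on genistein (log2 3.36) and 11.9-fold on the control diet (3.58). Its second bright probe set read 930.4 and 1161 units in genistein and control diet denervated muscle, against 125 and 106 in the sham pools (log2 ratios 2.90 and 3.45). The remaining 2 Adam19 probe sets read between 12.9 and 108 units, near or below the floor. All their sham signals were floored, so their log2 ratios of 0.06 to 0.46 are lower bounds. On the control diet they read 82.2 and 108 units in denervated muscle, against 26 and 25.4 in sham muscle. Adam19 was past 2-fold on both diets under each of the 7 other processing settings, with ratios of 1.68 to 3.84 on genistein and 1.89 to 3.94 on the control diet. Because Adam19 has the highest denervation ratio of the members, its promoter is shown whole (GRCr8, chr10:30992511-30992810, + strand, 250 bases before to 50 after the start), with capitals for an AP-1 motif that begins 169 bases before the start and a GC box (GGGCGG) that begins 43 bases before it.
Adam19: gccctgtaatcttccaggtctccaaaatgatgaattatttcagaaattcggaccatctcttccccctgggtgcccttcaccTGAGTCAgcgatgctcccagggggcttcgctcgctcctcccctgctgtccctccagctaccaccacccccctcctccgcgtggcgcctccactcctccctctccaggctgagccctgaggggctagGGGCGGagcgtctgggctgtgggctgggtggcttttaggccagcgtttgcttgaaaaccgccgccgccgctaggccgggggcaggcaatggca
Of the 22 members above the floor that have a promoter here, only Adam19 holds the AP-1 motif, where 7.33% of the 27457 promoters do. Other measured members, among them Lox and Adamts8, have no promoter here and were not searched. A GC box, searched on both strands, is in 34.9% of the 27457 promoters.

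The other ADAMs differed less. Adam10, the sheddase of Notch receptors, read 262 units in genistein denervated and 230.5 in control diet denervated muscle, against 157 in genistein sham and 176 in control diet sham muscle (log2 ratios 0.74 and 0.39). Adam17, which releases tumour necrosis factor from the membrane, read 1397 and 1197 units in genistein and control diet denervated muscle, against 1061 and 1222 in genistein and control diet sham muscle. Its ratios of 0.40 and -0.03 leave the pools overlapping. Adam4 was higher by 0.53 and 0.86 log2 units, Adam9 by 0.28 and at least 0.52, and Adam1a by 0.23 and 0.09. Adam15, an ADAM of endothelial and other cells, was lower, at -0.32 and -0.95, and so was Adam23, a non-cleaving ADAM of nerve cells, at -0.54 and -0.98. Adam33 lay at 0.07 and -0.10, and Adam8, a leukocyte ADAM, was below the floor in both denervated pools and at 85.0 and 88.3 units in genistein and control diet sham muscle. Of 10 measured ADAMs, 7 had a ratio above 0 on genistein and 5 on the control diet, and under scaling to the hybridisation controls 9 of 10 and 7 of 9.

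ADAMTS proteases were mostly lower in denervated muscle, 9 of 10 on genistein and 8 of 9 on the control diet, with medians of -0.59 and -0.75. Scaling to the hybridisation controls left 7 of 10 and 8 of 10 below 0, with medians of -0.12 and -0.36. As deposited, Adamts4 on both diets and Adamts19 on genistein were measured only through sham signals above the floor. Their ratios could therefore only be below 0. Among ADAMTS genes above the floor on all 4 arrays, 6 of 7 were below 0 on each diet, with medians of -0.59 and -0.75. Adamts8, a secreted protease that can cut aggrecan, read 105 units in genistein denervated and 84.0 in control diet denervated muscle, against 1950.4 in genistein sham and 1257 in control diet sham muscle. The denervated signals are just above the floor and far below both sham pools, with ratios of 18.5-fold lower on genistein (log2 -4.21) and 15.0-fold lower on the control diet (-3.90). With the floor at the 60th percentile both denervated signals are floored, and the log2 ratios become bounds (-3.16 or lower and -2.53 or lower). Adamts12, which cuts cartilage oligomeric matrix protein, read 126 units in genistein denervated muscle and 78.2, below the floor, in control diet denervated muscle, against 309.6 in genistein sham and 299.6 in control diet sham muscle. That is 2.45-fold lower on genistein and at least 3.80-fold lower on the control diet.

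The proteoglycan-cutting ADAMTS genes did not all go that way. Adamts1, a versican-cutting protease, read 476 and 569 units in genistein and control diet denervated muscle, against 1021.5 and 848 in genistein and control diet sham muscle, 2.15-fold and 1.49-fold lower. Adamts5, the main aggrecan-cutting ADAMTS of mouse cartilage, read 419 and 285.5 units in the same denervated pools, against 537 and 542 in the sham pools (-0.36 and -0.92). Adamts15, another aggrecan-cutting member, read 159 and 82.7 units, against 240.5 and 173 in genistein and control diet sham muscle. It was 1.51-fold lower on genistein and 2.09-fold lower on the control diet, a value that fell short of 2-fold under all 3 other scalings and with the floor at the 60th percentile. Adamts4 read below the floor in both denervated pools (68.3 and 61.7 units) and just above it in the sham pools (90.0 and 93.6). Adamts7 (-0.59 and -0.71) and Adamts10 (-0.62 and -0.75), known for binding fibrillin, were also lower, although the second probe set of Adamts10 gave 0.24 on genistein. Adamts9, a versican-cutting protease, was higher, at 347 and 442 units in genistein and control diet denervated muscle, against 229 and 220.0 in the sham pools (0.60 and 1.01). Its second probe set went the other way (-0.38 and -0.79), and the control diet ratio came under 2-fold when arrays were quantile-normalized or probe sets averaged.

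Measured MMPs differed little between denervated and sham muscle. Mmp2, which degrades basement membrane collagen and is activated at the cell surface by Mmp14 together with Timp2, read 1596 units in genistein denervated and 1132 in control diet denervated muscle, against 1636 in genistein sham and 1336 in control diet sham muscle (log2 ratios -0.04 and -0.24). Mmp14 read 625 and 603 units in genistein and control diet denervated muscle, against 941 and 796 in genistein and control diet sham muscle (-0.59 and -0.40). Both denervated pools were thus below both sham pools for Mmp14, but its second probe set gave -0.39 and 0.26. Mmp24, another membrane-type MMP, was higher by 0.32 and 0.30, and Mmp15 was at -0.44 and -0.07. Mmp23 was past 2-fold on the control diet, at 175 units in genistein denervated and 97.1 in control diet denervated muscle, against 235 in genistein sham and 217 in control diet sham muscle (-0.43 and -1.16). That probe set is of the kind that can match several transcripts, and the 2 other Mmp23 probe sets gave -0.07 and -0.21 on the control diet. Of 6 measured MMPs, 4 were below 0 on genistein and 5 on the control diet, counts that became 1 of 7 and 3 of 6 under scaling to the hybridisation controls.

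TIMP genes went different ways after nerve loss. Timp1, the inducible secreted inhibitor, read 555 units in genistein denervated and 326 in control diet denervated muscle, against 829.8 in genistein sham and 994 in control diet sham muscle. Both denervated pools were below both sham pools, 1.49-fold on genistein (log2 -0.58) and 3.04-fold on the control diet (-1.61). Timp4 was lower too, at 198 and 133 units in genistein and control diet denervated muscle, against 275 and 201.5 in the sham pools (-0.47 and -0.60). Timp2 read 4226.5 and 3058 units in genistein and control diet denervated muscle, against 2988 and 2834 in the sham pools (0.50 and 0.11). Timp3, the matrix-bound inhibitor that also blocks Adam17, read 4003 and 3239 units in genistein and control diet denervated muscle, against 3199 and 2843.5 in the sham pools (0.32 and 0.19). A dim probe set of Timp2 went the other way (-0.24 and -0.28), and the 3 measured probe sets of Timp3 lay between -0.17 and 0.53 on genistein and between 0.04 and 0.28 on the control diet.

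Lysyl oxidases were lower in control diet denervated than in control diet sham muscle in 4 of 4 genes, with log2 ratios between -0.67 and -1.37. Lox, the founding enzyme of the family, read 849 units in genistein denervated and 342 in control diet denervated muscle, against 809 in genistein sham and 887 in control diet sham muscle. The control diet denervated pool stands alone at a low signal, 2.59-fold below its sham pool (-1.37), whereas the genistein denervated pool lay within the range of the sham pools (0.07). The second Lox probe set read 476 and 289 units in genistein and control diet denervated muscle, against 816 and 660.1 in the sham pools, with ratios of -0.78 and -1.19. Both probe sets therefore had Lox more than 2-fold lower on the control diet, and they differed in sign on genistein. Loxl1, needed for elastic fibre upkeep in mice, read 879 and 734 units in genistein and control diet denervated muscle, against 1215 and 1406 in the sham pools (-0.47 and -0.94). Loxl2, which crosslinks basement membrane collagen, read 218 and 190.3 units in genistein and control diet denervated muscle, against 357 and 302 in the sham pools (-0.71 and -0.67). Loxl3 was at -0.73 and -0.70. On genistein 3 of 4 lysyl oxidases were below 0, which became 4 of 4 under quantile normalization and 2 of 4 under scaling to the hybridisation controls.

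**Figure D3:**
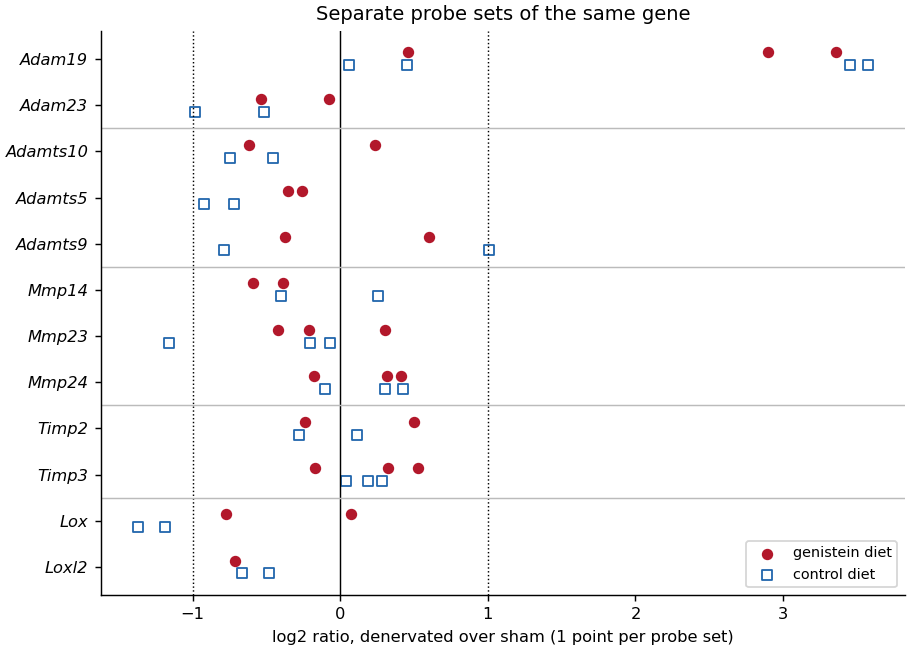
Log2 ratio of denervated over sham soleus for each probe set of the members with at least 2 measured probe sets, on genistein (red circles) and on the control diet (open blue squares). Adam19 has a bright pair near 3 and a dim pair near 0, the dim values being lower bounds set by floored sham signals. The probe sets of Adamts9 lie on both sides of 0, and those of Lox agree on the control diet more closely than on genistein.

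The next comparison is genistein against the control diet in denervated muscle. Members were mostly higher on genistein, 26 of 31 with a ratio above 0 and 5 below it (50% and 49.9% of all 10479 measured genes), and the member median was 0.28 against 0.00. The count above 0 was 20 of 31 under median scaling, 21 of 31 under quantile normalization and 30 of 35 under scaling to the hybridisation controls, which put the median of all genes at -0.13, -0.02 and 0.13. The member median stayed above that of all genes by 0.23 to 0.28 under those settings. Past 2-fold were 1 member higher and 0 lower, where 1.02% and 0.124% of all measured genes were. Those shares are 107 genes higher and 13 lower, which became 61 and 27 under median scaling, 72 and 19 under quantile normalization, and 223 and 12 under scaling to the hybridisation controls.

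That member was Lox, at 849 units in genistein denervated and 342 in control diet denervated muscle, 2.48-fold higher (log2 1.31), and 0.72 on its second probe set. It was past 2-fold under each of the 7 other settings. Next came Adamts15 (159 and 82.7 units, 0.95), Adam23 (0.91), Mmp23 (175 and 97.1 units, 0.85) and Timp1 (555 and 326 units, 0.77). The other Mmp23 probe sets gave 0.41 and -0.37. All 4 TIMPs were above 0, with Timp4 at 0.58, Timp2 at 0.47 and Timp3 at 0.31, and remained so under the 3 other scalings. The lysyl oxidases were above 0 in 4 of 4 genes (3 of 4 under median scaling and quantile normalization), with Loxl1 at 0.26, Loxl2 at 0.20 and Loxl3 at 0.02. Among MMPs, Mmp17 was at 0.62, Mmp2 at 0.50 and Mmp14 at 0.05. Below 0 were Adamts9 (-0.35), Adam19 (-0.28), Adamts1 (-0.26), Mmp15 (-0.23) and Mmp24 (-0.01), of which Adam19, Adamts9 and Mmp24 were also higher in denervated than in sham muscle.

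**Figure D4:**
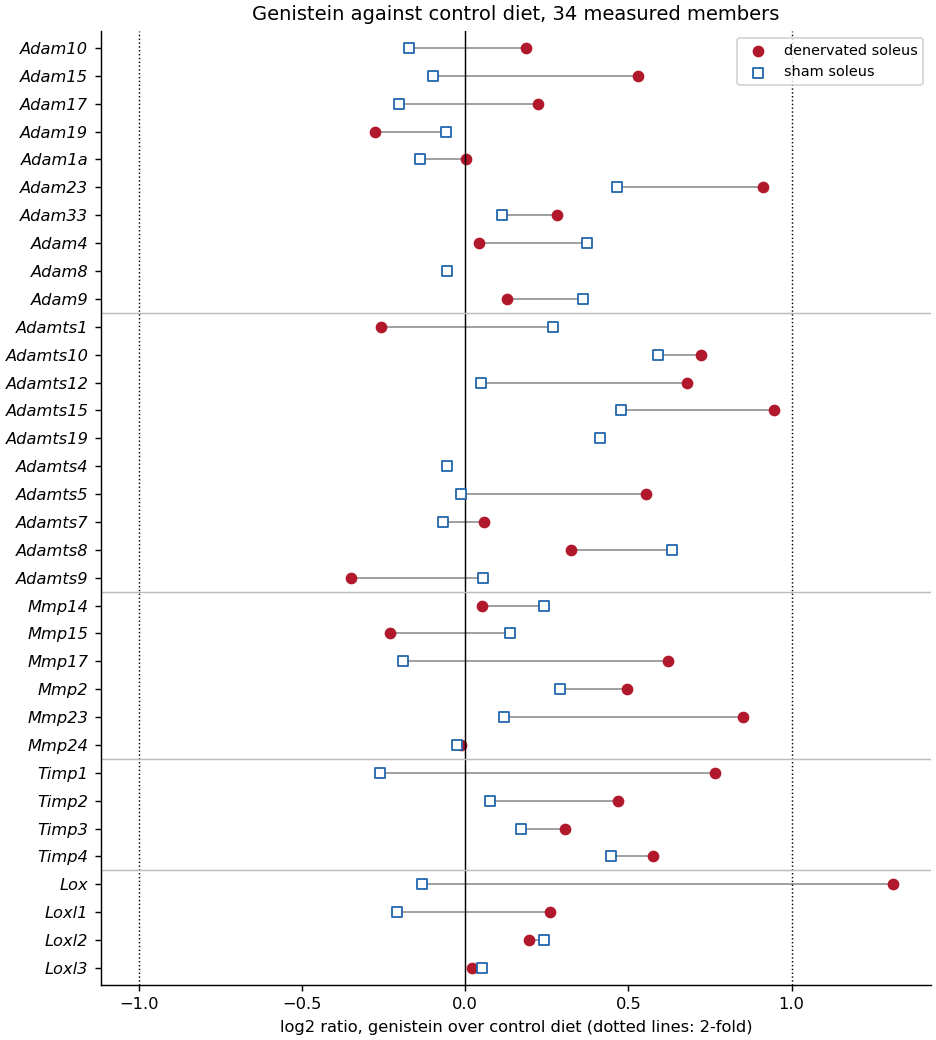
Log2 ratio of genistein over control diet for the measured members, by family, in denervated soleus (red circles) and sham soleus (open blue squares). In denervated muscle 26 of 31 members lie right of 0 and Lox lies past 2-fold, and in sham muscle no member reaches 2-fold.

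In sham muscle the diet made smaller differences. Neither direction had a member past 2-fold among 34 (0.324% of all 10819 genes were higher and 0.287% lower), 20 members were above 0 and 14 below it (50.5% and 49.5% of all genes), and the median was 0.07 against 0.00. The ratios ran from -0.26 for Timp1, at 829.8 units in genistein sham and 994 in control diet sham muscle, to 0.63 for Adamts8, at 1950.4 and 1257 units. Adamts10 followed at 0.59, but its second probe set gave -0.46. Adamts15 was at 0.48, Adam23 at 0.47 (-0.44 on its second probe set), Timp4 at 0.45 and Adamts19 at 0.41 or more. Over 31 members the diet ratios in denervated and in sham muscle, which share no array, had a Pearson r of 0.10 and a Spearman rho of 0.10. Mmp2 and Adam33 were the members that read higher on both genistein arrays than on both control diet arrays (2 of 34, where 9.15% of all genes did), and 0 members read lower on both (6.91% of all genes).

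**Figure D5:**
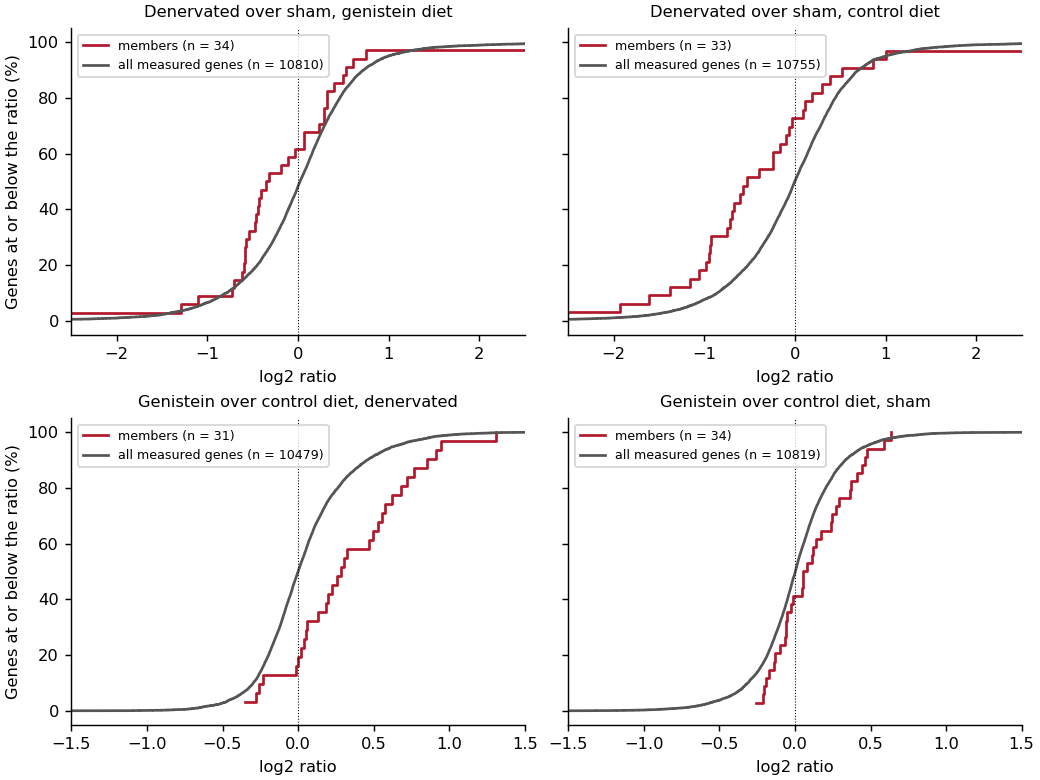
Cumulative share of genes (%) at or below each log2 ratio, for the members (red) and all measured genes (grey), in the 4 comparisons. The axes leave out Adam19 and Adamts8 in the upper panels. The member curve lies left of that of all genes over most of its course in the denervation panels, more so on the control diet, and right of it for genistein in denervated muscle.

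The difference between the denervation effects, genistein minus control diet, brings these values together. It was above 0 in 23 of 34 members and below it in 11 (49.5% and 50.4% of all 11151 genes). The median was 0.13 against 0.00 for all genes, and -0.05 with the floor at the 60th percentile. At least 1 log2 unit apart were Lox (1.44) and Timp1 (1.03), 2 of 34 members upward and 0 downward, where 1.88% and 0.708% of all genes were. This difference, the control diet denervation ratio and the diet ratio in denervated muscle all use the control diet denervated array. For Lox and Timp1 they are therefore not separate results. That array had a median signal of 121.1 units, against 128.3 to 132.9 on the others. Across the 7 other settings the Lox difference ran from 0.93 to 1.56, with the lowest value from the mean of its probe sets, and that of Timp1 from 0.91 to 1.14. The second Lox probe set taken alone gave a smaller difference than any of these, with denervation ratios of -0.78 on genistein and -1.19 on the control diet. Further down were Mmp17 (0.81), Mmp23 (0.73), Adam15 (0.63), Adamts12 (at least 0.63, because its control diet ratio is a bound) and Adamts5 (0.57). Across the 7 other settings the Mmp23 difference ran from -0.11 to 0.85 and that of Adamts12 from -0.05 to 0.76, both turning below 0 with the floor at the 60th percentile. Adam19 (-0.22) and Adamts8 (-0.31), the members with the largest denervation ratios, had differences smaller than the probe set SD of the denervation ratios.

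The matrix proteins that these enzymes act on mostly went the way of the lysyl oxidases and most ADAMTS genes. Of 33 measured substrates such as collagens, fibrillin and proteoglycans, 3 were at least 2-fold lower in denervated muscle on genistein and 22 on the control diet, and 0 were higher by that much on either, with medians of -0.67 and -1.26. Of all measured genes, 6.57% on genistein and 7.63% on the control diet were lower by that much, and 4.96% and 5.04% higher. These substrate counts are given with the deposited scaling only. Scaling to the hybridisation controls raised the median of all genes to 0.48 on genistein and 0.35 on the control diet. Several substrates were just past 2-fold on the control diet, among them Lum (-1.02), Col4a2 (-1.04) and Nid1 (-1.07). Col1a1, the main fibrillar collagen chain, was at -1.94 and -2.40, Postn (periostin) at -1.33 and -2.04, and Tnc (tenascin C) at -0.93 and -2.05. Above 0 were 4 of 33 substrates on genistein and 3 of 33 on the control diet (51.7% and 49.8% of all genes). They were Fbln1 (0.53 and 0.46), Nid2 (0.34 and 0.29), Emilin1 (at least 0.34, and 0.01) and, on genistein only, Dcn (0.15). In denervated muscle the substrates were higher on genistein in 28 of 32 genes (50% of all measured genes were), with a median of 0.58. Enzymes of collagen modification lay nearer 0, with medians of -0.22 and -0.10 over 17 and 16 genes, and Plod2, a collagen lysyl hydroxylase, was higher at 2247 and 1871.5 units in genistein and control diet denervated muscle, against 1052 and 964 in the sham pools (1.09 and 0.96).

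Other proteases, activators and inhibitors outside the member families had 3 genes at least 2-fold higher and 3 lower of 31 on genistein, and 4 higher and 7 lower of 32 on the control diet. Of all measured genes 4.96% were higher and 6.57% lower on genistein, and 5.04% higher and 7.63% lower on the control diet. Rhbdf2, or iRhom2, which carries Adam17 to the cell surface, read 475 and 598.5 units in genistein and control diet denervated muscle, against 96.9 and 213 in the sham pools (2.29 and 1.49). Tspan15, a tetraspanin partner of Adam10, read 493 and 576.5 units in the denervated pools, against 119 in genistein sham and 14.6, below the floor, in control diet sham muscle (2.05 and at least 2.87). The cysteine protease Ctsl was at 1.11 and 1.22. Adamtsl5 and Adamtsl4, ADAMTS-like proteins without a protease domain, were at -1.86 and -1.98 and at -1.80 and -1.62, while Adamtsl2 was at 0.88 and 1.17. Plat, the tissue plasminogen activator, was at -1.06 and -1.56, and Serpinh1, the collagen chaperone, at -0.92 and -1.24.

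With the deposited scaling, markers of fibroblasts and endothelial cells were mostly lower in denervated muscle on both diets, and those of macrophages and adipocytes differed between the diets. Fibroblast markers, 9 of 9 above the floor, summed to 44345 units in genistein denervated and 27840 in control diet denervated muscle, against 58406 in genistein sham and 58068 in control diet sham muscle. Of these, Col1a1, Col1a2, Col3a1, Dcn, Lum and Fbn1 are also among the matrix substrates above, so the lists are not independent. The remaining fibroblast markers had denervation ratios of 0.12 and -0.23 (Pdgfra), -0.80 and -0.47 (Thy1), and -0.17 and -0.34 (Dpt) on genistein and on the control diet. Endothelial markers (8 of 9 on the array) summed to 3788 and 2466 units in the denervated pools, against 4894 and 4865 in the sham pools, and macrophage and leukocyte markers (9 of 10) to 6765 and 3934 units, against 7110.3 and 6885. Adipocyte markers (6 of 6, Lep below the floor) summed to 6401 and 3949 units in the denervated pools, against 6802 and 7326. The last 2 sums come mostly from 1 gene each. In genistein denervated muscle Lyz2 gave 4287.5 units of the macrophage and leukocyte sum and Fabp4 3843 of the adipocyte sum. Fibroblast markers were below 0 in 7 of 9 genes on genistein and 9 of 9 on the control diet (medians -0.50 and -1.02), endothelial ones in 6 of 8 and 8 of 8 (-0.43 and -0.97), and macrophage and leukocyte ones in 5 of 9 and 7 of 8 (-0.02 and -0.58). Of all measured genes 48.3% on genistein and 50.2% on the control diet were below 0. Scaling to the hybridisation controls raised the median of all genes to 0.48 on genistein and 0.35 on the control diet. On genistein that is close in size to the fibroblast and endothelial medians, so their direction there depends on the scaling. Of the adipocyte markers 4 of 5 measured were above 0 on genistein (median 1.06), with Plin1 at 1.39, Cfd at 1.24, Cidec at 1.06 or more and Adipoq at 0.95, while Fabp4 was at -0.57. On the control diet 1 of 4 was above 0 (median -0.18). In denervated muscle 8 of 9 fibroblast, 8 of 8 endothelial, 8 of 8 macrophage and leukocyte and 5 of 5 adipocyte markers were higher on genistein (medians 0.72, 0.68, 0.86 and 1.06), where 50% of all measured genes were. Fewer cells of a type and less RNA per cell cannot be told apart in whole muscle, and the part of these cells, and of the higher actin 3′ to 5′ ratio in control diet denervated muscle, in the member ratios was not tested. The GAPDH 3′ to 5′ ratio was not higher in the denervated than in the sham pools.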

How the data were processed

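Soleus RNA of 8 rats was pooled per group and labelled with biotin for an Affymetrix rat array, per the labels' protocols. The deposited values are linear intensity signals for every probe set, made with GCOS version 1.1 per the submitters' processing notes. Detection calls and the background method are not given in the sources used here. Groups follow the sample titles.

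Of 31099 probe sets, 57 controls were set aside and 20826 had 1 gene symbol in the platform annotation. A gene's value was that of its brightest probe set (mean of log2 signals over the arrays), signals were floored at 78.9 units (40th percentile), and a gene counted as measured when at least 1 array compared was above the floor. All 55 member gene identifiers are in the GRCr8 annotation, with 0 symbols changed. With 1 array per group no test was made and no p-value is given, and the number of arrays limits the precision. The counting script was tested on simulated data. The 7 alternatives were 3 scalings (array median, quantile, hybridisation controls), floors at the 20th and 60th percentiles, the mean of probe sets, and genes above the floor on all 4 arrays. Values of the gene lists and markers outside the members are given with the deposited scaling only.

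Full signals are given for members past 2-fold in any comparison and for a set of well-studied members named beforehand, 20 in all, and the others by their ratios. Of the list genes, those with the 4 highest and 4 lowest mean denervation ratios were eligible to be named, and markers are named where they part from their list. The fibroblast markers are named to show their overlap with the matrix substrates. The members and lists were chosen with earlier results of these data known. Python 3.11.15, pandas 2.3.3, numpy 2.4.6 and scipy 1.17.1 were used.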

Additional observations from a re-analysis of the deposited data

Results flagged for a closer look

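Adamts1, the versican-cutting protease, was the member whose diet ratios in denervated and in sham muscle had opposite signs with both sizes above the probe set SD of their comparison. Its log2 ratio of genistein over control diet was -0.26 in denervated muscle (476 and 569 units) and 0.27 in sham muscle (1021.5 and 848 units), a difference of -0.53. Both ratios are close to the SDs of 0.25 and 0.27, and the difference was not tested. For the denervation ratio no member met that condition, and Lox, whose ratios on genistein and on the control diet were 0.07 and -1.37, missed it because the first is within scatter.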

How the results depend on the processing

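No paired analysis was possible because each group is 1 pooled array. Of 671 recomputed ratios of named members, 62 moved by more than the probe set SD, 37 of them under scaling to the hybridisation controls, and none past 2-fold changed sign. That scaling gave denervation medians of 0.077 on genistein and -0.16 on the control diet, 4 members higher and 1 lower at 2-fold on genistein, and 3 members higher for genistein in denervated muscle. With the floor at the 20th percentile, 3 members were higher and 6 lower after denervation on genistein, 2 higher and 1 lower for genistein in denervated muscle, and 2 higher and 2 lower in sham muscle. Those additions (Adam8, Adam32, Adamts16, Adamts19, Mmp3, Mmp8 and Mmp10) rest on signals between 8.8 and 105 units. With the floor at the 60th percentile 3 members were lower on the control diet, because Adamts12, Adamts15 and Mmp23 no longer differed by 2-fold from the raised floor. On that diet 1 member was higher when arrays were quantile-normalized and 1 when probe sets were averaged, as Adamts9 came under 2-fold. Adam19 after denervation, Adamts8 after denervation, and Lox and Timp1 after denervation on the control diet were past 2-fold under all 7 alternatives. Signals near the floor limit what can be said of the MMPs, 11 of 17 of which were below it.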

Other observations

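Membrane proteins that ADAM enzymes are known to cut had medians of 0.09 on genistein (19 measured) and -0.20 on the control diet (20 measured) after denervation. At least 2-fold higher were 2 on each diet, where 4.96% and 5.04% of all genes were, and 0 and 1 were lower (6.57% and 7.63% of all genes). Il6st, the gp130 receptor chain of the interleukin-6 family, read 6570.0 and 6993 units in genistein and control diet denervated muscle, against 2427.5 and 2613 in the sham pools (log2 ratios 1.44 and 1.42). Ptprk, a receptor phosphatase, read 617 and 687 units in the denervated pools, against 236 and 318 (1.39 and 1.11). Hbegf, a growth factor released by shedding, was lower at -0.67 and -1.02. Nrg1, a substrate of Adam19 named here after its values were seen, was below the floor on all 4 arrays.

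Transcription and growth factors that act on matrix genes had 5 genes at least 2-fold higher and 0 lower after denervation on genistein, and 4 higher and 1 lower on the control diet, of 22 measured. Over all genes 4.96% and 5.04% were higher and 6.57% and 7.63% lower. Ets2, a transcription factor with sites in protease promoters, read 3232 and 4014 units in genistein and control diet denervated muscle, against 671 and 634 in the sham pools (2.27 and 2.66). Junb, a component of AP-1, was at 1.64 and 1.32, Tgfb2 at 1.28 and 1.33 and Smad3 at 1.04 and 1.33, while Ccn2, the connective tissue growth factor, was at -0.78 and -1.59. Hybridisation controls read lower on the denervated arrays by medians of -0.54 log2 units on genistein and -0.39 on the control diet.

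Markers of rarer cells gave the following summed signals, some of which come mostly from 1 gene. In genistein denervated muscle Pmp22 gave 3825 units of the Schwann cell sum, Sdc4 1913.5 of the satellite cell sum and Cpa3 308.8 of the mast cell sum. Sdc4 and Vcam1 are satellite cell markers that are also among the ADAM substrates above. Schwann cell markers (4 of 6 on the array, Sox10 below the floor) summed to 4408 and 3314 units in genistein and control diet denervated muscle, against 3404 and 3278 in the sham pools, with 3 of 3 and 2 of 3 above 0 (medians 0.57 and 0.02). Satellite cell markers (3 of 5) summed to 2599 and 2783 units, against 4752 and 4495, and tendon markers (2 of 3) to 2928 and 2171, against 3684 and 3868. Neutrophil markers (Cxcr2 below the floor) summed to 536.5 and 299.7 units, against 456 and 339.8, and mast cell markers (Mcpt1 and Kit below the floor) to 427 and 190.7, against 499 and 432.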
